A study of Mus musculus with 46 samples.

Results

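The nuclear envelope linker genes are *Syne1*, *Syne2*, *Syne3*, *Sun1*, *Sun2*, *Emd*, *Lmna*, *Lmnb1* and *Lmnb2*, and their RNA levels were followed here across 8 groups of mouse skeletal muscle libraries. *Syne1* was chosen by measured values of these same libraries: it is among 8 genes that the study names for a difference between genotypes in the response to androgen treatment, in both of its experiments. Its values are therefore given as a description, with no test. The other 8 genes were taken by name, as the proteins that join *Syne1*'s product to the nuclear lamina and their relatives. Like the gene lists used below, they were chosen with earlier results of these data known, which no q value here allows for. By Ensembl identifier, 9 of 9 were found in both count tables, among 17514 genes in the table of the first experiment, 16987 in that of the second and 17859 in either.

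Nesprins, the products of the *Syne* genes, sit in the outer nuclear membrane and bind actin, microtubule motors and other parts of the cytoskeleton. In the space between the nuclear membranes their KASH domain is held by SUN proteins, which cross the inner membrane and reach the lamina, a mesh of lamins to which emerin also binds. In a muscle fibre, which holds many nuclei, this chain anchors and spaces the nuclei, including those gathered under the nerve ending.

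The study asked whether *Actn3* genotype alters the response of muscle to androgen. *Actn3* encodes alpha-actinin-3, a protein of the Z line of fast fibres. All mice were C57BL/6J by the study's methods, given as C57BL6 in the labels. They were either wild type (WT) or *Actn3* knockout (KO), in which the gene is lost in the whole animal and not in muscle alone. In the first experiment the gastrocnemius was taken from males that had been orchidectomised (ORX) or sham operated at 8 to 10 weeks of age, 12 weeks after the operation. In the second the spinalis was taken from females that had carried, for 6 weeks from 4 to 5 weeks of age, a silastic tube holding 10 mg of dihydrotestosterone (DHT) or nothing. Sex, muscle, age and kind of treatment thus differ together between the experiments and cannot be told apart.

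RNA sequencing gave 45 libraries: 6 WT-ORX, 6 WT-sham, 5 KO-ORX and 6 KO-sham in males, and 6 WT-DHT, 5 WT-empty, 6 KO-DHT and 5 KO-empty in females. The labels describe 46 samples, with 6 in the KO-ORX group, but the table has columns for 5 of those. Mice of the ORX experiment are numbered as in the labels, and mice of the DHT experiment, whose columns match the labels by group only, are numbered in column order. Total counts per library ran from 43408015 to 50273747 in WT-sham, from 39882434 to 55369921 in WT-ORX, from 29511438 to 37486666 in KO-sham and from 26653932 to 48521557 in KO-ORX. They ran from 37289993 to 51183210 in WT-empty, from 34812381 to 53899279 in WT-DHT, from 42478015 to 47807754 in KO-empty and from 34902028 to 51652767 in KO-DHT. The totals of KO-sham lay wholly below those of WT-sham, while the groups of the DHT experiment overlapped in depth.

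The genotype labels were checked on *Actn3*. In WT libraries its counts ran from 271459 to 522718 in the ORX experiment and from 222975 to 518011 in the DHT experiment. In KO libraries they ran from 1051 to 2702 and from 2133 to 3913, so that the genotypes stood far apart in each experiment. The tissue label was checked on 6 genes of the skeletal muscle fibre (*Acta1*, *Ckm*, *Mylpf*, *Tnnt3*, *Myh4* and *Ttn*). Their summed level ran from 163833 to 296223 CPM in the ORX experiment and from 199866 to 308313 in the DHT experiment, of which *Ttn* held 50.5% and 45.3% on average. CPM is a gene's counts scaled to a common library total, after each total is adjusted by its TMM factor.

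All 9 genes had counts in every library, the lowest being 88 for *Lmnb2* in a KO-sham library. Levels of the 9 genes are compared with each other only per length, as CPM per kilobase of each gene's merged exons, which do not tell isoforms apart. On that scale the means over all libraries of the ORX experiment fell in the order *Sun2* (22.9), *Lmna* (10.2), *Sun1* (8.43), *Emd* (7.15), *Syne1* (4.47), *Syne2* (3.03), *Syne3* (1.93), *Lmnb1* (1.37) and *Lmnb2* (0.876). Over all libraries of the DHT experiment the means gave the same order, with CPM per kilobase of 26.6, 13.5, 7.14, 6.17, 5.07, 2.64, 1.50, 1.38 and 1.24. *Sun2* stood above *Lmna* in every library of both experiments. Library ranges overlapped between *Lmna* and *Sun1* in the ORX experiment, between *Emd* and *Syne1* in the DHT experiment and, in both, between *Sun1* and *Emd* and among the lowest 3 genes. *Syne1* and *Syne2*, and *Syne2* and *Syne3*, overlapped in the ORX experiment and did not in the DHT experiment. Group by group, the means kept this order in the 4 groups of the ORX experiment and with empty tubes, but not with DHT. In WT-DHT the mean of *Syne1* (7.25 CPM per kilobase) was above those of *Emd* (6.76) and *Sun1* (6.27), and in KO-DHT *Syne3* (1.20) was below *Lmnb1* (1.25) and *Lmnb2* (1.27).

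**Figure D1:**
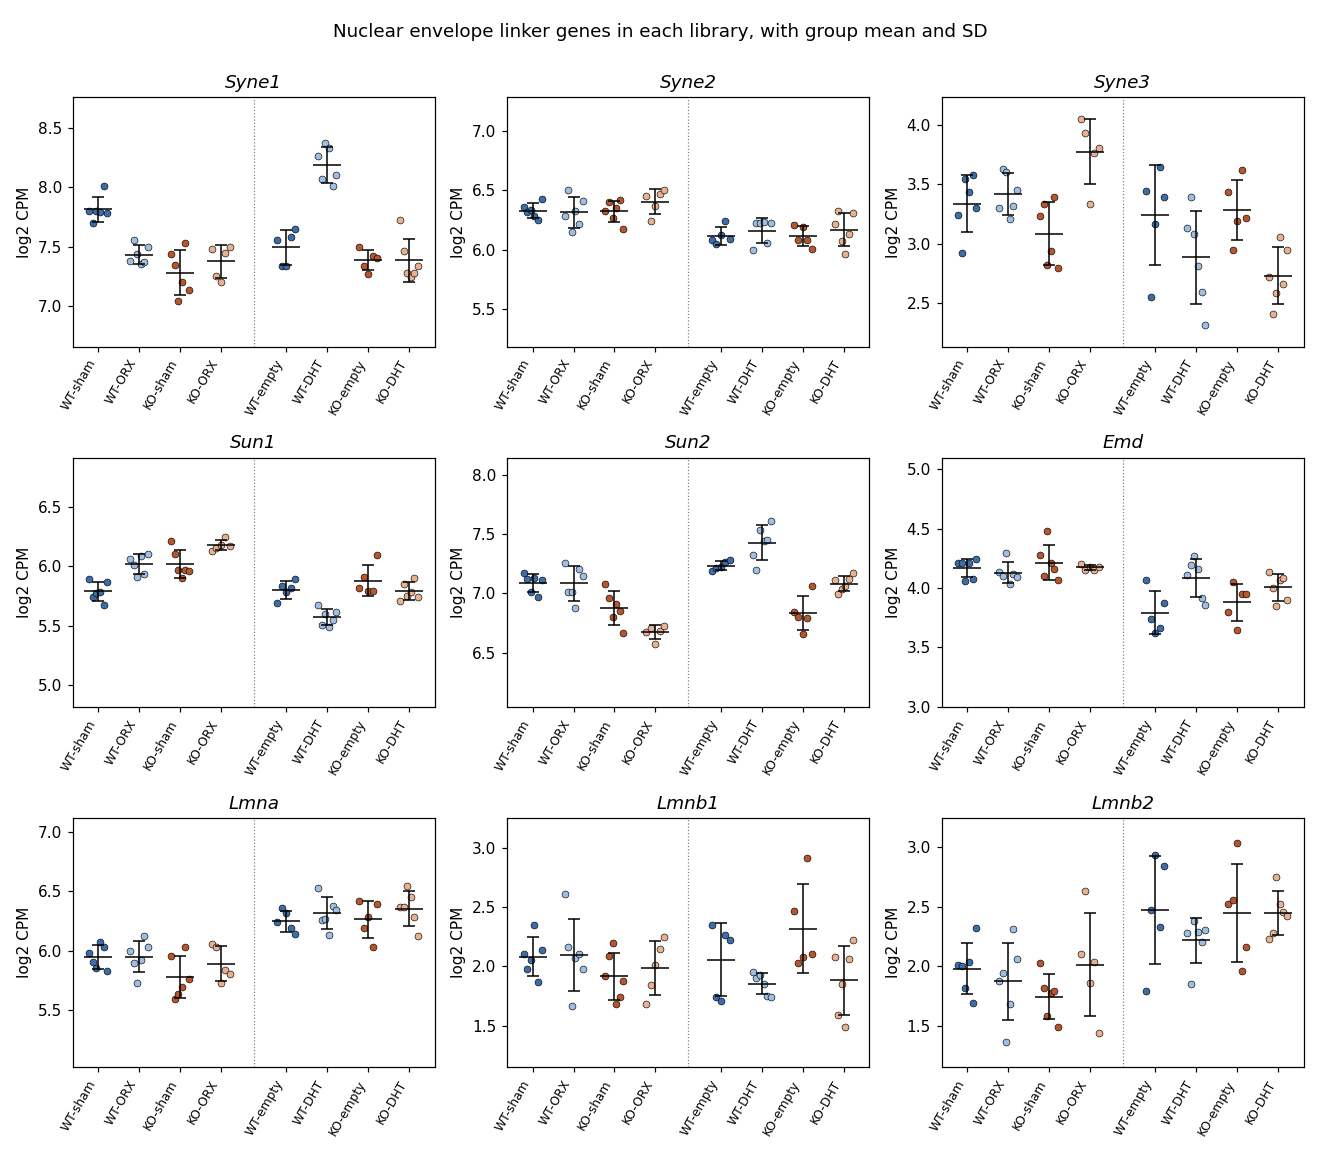
Log2 CPM (vertical axis, a span of the same length for each gene) of the 9 genes in each of the 45 libraries, as points by group, with the group mean and SD as lines. *Syne1* is highest in WT-sham (7.70 to 8.01) and WT-DHT (8.01 to 8.38), and *Sun1* is lowest in the same groups (5.68 to 5.89 and 5.49 to 5.67).

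*Syne1* encodes nesprin-1, whose giant form carries actin-binding domains at the end away from the nucleus. In the ORX experiment its level in log2 CPM, with the lowest, median and highest library, was 7.70, 7.80 and 8.01 in WT-sham, 7.36, 7.41 and 7.55 in WT-ORX and 7.04, 7.28 and 7.53 in KO-sham. The 5 KO-ORX libraries stood at 7.20, 7.25, 7.45, 7.48 and 7.50. Every WT-sham library was above every library of the other 3 groups, which overlapped one another and whose means differed by less than 1 SD between neighbours in the order WT-ORX, KO-ORX and KO-sham. ORX in WT gave a log2 fold change of -0.38 ± 0.07 (standard error, as in all fold changes below), with 6 of 6 WT-ORX mice below the WT-sham mean. ORX in KO gave 0.09 ± 0.08, with 0.04 to 0.14 when each library was left out in turn. It gave 0.20 when libraries were scaled by their totals alone, which moved the median of all genes in this comparison to 0.121. The difference between these ORX effects, KO minus WT, was 0.47 ± 0.10. Between genotypes the log2 fold change, KO minus WT, was -0.53 ± 0.07 in sham mice and -0.05 ± 0.08 in ORX mice. The value in ORX mice ran from -0.08 to -0.01 with each library left out in turn.

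In the DHT experiment *Syne1* stood at 7.34, 7.34, 7.56, 7.58 and 7.65 log2 CPM in the 5 WT-empty libraries and at 7.27, 7.34, 7.40, 7.42 and 7.50 in the 5 KO-empty libraries. The lowest, median and highest log2 CPM were 8.01, 8.18 and 8.38 in WT-DHT and 7.24, 7.31 and 7.72 in KO-DHT. Here WT-DHT stood apart, with every library above all those of the other 3 groups, and WT-empty, KO-DHT and KO-empty overlapped, with neighbouring means less than 1 SD apart. DHT in WT gave a log2 fold change of 0.70 ± 0.09, higher in 6 of 6 WT-DHT mice than the WT-empty mean. DHT in KO gave 0.01 ± 0.09, which is -0.03 when libraries are scaled by their totals alone. It ran from -0.07 to 0.04 with each library left out in turn. The difference between the DHT effects, KO minus WT, was -0.69 ± 0.12, and the genotypes differed by -0.11 ± 0.09 with empty tubes and by -0.80 ± 0.08 with DHT. With each library left out in turn, the genotype difference with empty tubes ran from -0.14 to -0.07. *Syne1* was thus high only in the WT group with the more androgen of each experiment, which is the pattern it was selected on. Comparisons within an experiment share groups, so their values for a gene are not independent of each other.

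The genes whose log2 CPM followed that of *Syne1* most closely were *Arhgap35*, *Itpr1*, *Tmem100*, *Vcl* and *Il1r1*. Pearson's r with *Syne1*, given as a description over libraries that share their groups, was 0.87 over the 23 libraries of the ORX experiment and 0.93 over the 22 of the DHT experiment for *Arhgap35*, and 0.85 and 0.91 for *Itpr1*, which the study had picked on the same values as *Syne1*. It was 0.85 and 0.93 for *Tmem100*, 0.85 and 0.91 for *Vcl* and 0.82 and 0.94 for *Il1r1*. These genes were ranked by the smaller of the pair of r values, and the ranking says nothing of how widely each gene moved: the log2 fold change of DHT in WT was 0.67 for *Arhgap35* and 2.78 for *Tmem100*.

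Of the 6 genes nearest to *Syne1* in the reference, 3 on either side, only *Esr1*, which encodes oestrogen receptor alpha, was in the count tables. Its lowest, median and highest log2 CPM were 5.21, 5.40 and 5.42 in WT-sham, 5.70, 5.92 and 6.12 in WT-ORX and 5.11, 5.33 and 5.49 in KO-sham, and KO-ORX libraries stood at 5.55, 5.56, 5.64, 5.71 and 5.71. It was higher with ORX and lower with DHT, in each genotype without overlap. Each q here and below is a Benjamini-Hochberg value over all genes of a table, from the quasi-likelihood F test of edgeR. ORX in WT raised it by a log2 fold change of 0.56 ± 0.06 (q 5.48e-07, higher in 6 of 6 mice) and ORX in KO by 0.33 ± 0.07 (q 0.00181, 5 of 5). DHT lowered it, with -0.62 ± 0.09 in WT (q 1.56e-05, lower in 6 of 6) and -0.48 ± 0.09 in KO (q 0.00117, 6 of 6). KO-ORX was below WT-ORX by -0.28 ± 0.07 (q 0.00767, lower in 5 of 5). The other genotype comparisons did not pass, with -0.05 ± 0.06 in sham mice (q 0.699, lower in 3 of 6), -0.13 ± 0.09 with empty tubes (q 0.448, lower in 4 of 5) and 0.01 ± 0.09 with DHT (q 0.945, higher in 3 of 6). The effects in WT and KO did not differ past the threshold, with an interaction of -0.23 ± 0.09 (q 0.395) for ORX and 0.14 ± 0.13 (q 0.665) for DHT. *Esr1* moved opposite to *Syne1* in WT mice and moved also in KO mice, where *Syne1* showed little change.

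For the other 8 genes a change is called where q is at most 0.01, or 0.05 for the interaction, the thresholds of the study. Each q sets a difference between group means against the spread between mice. ORX in WT changed 1 of 8 (*Sun1*, higher), against 5.45% of all genes, and ORX in KO changed 1 of 8 (*Syne3*, higher), against 5.57%. Between genotypes, 1 of 8 differed in sham mice (*Sun1*, higher in KO; 5.30% of all genes) and 1 of 8 in ORX mice (*Sun2*, lower in KO; 3.80%). For the interaction in the ORX experiment edgeR called 0 of 8, as did DESeq2 and limma-voom, with 2 (*Syne3* and *Sun2*) at an unadjusted p under 0.05, and 0.0228% of all genes were called.

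In the DHT experiment, DHT in WT changed 1 of 8 (*Sun1*, lower), against 11.3% of all genes. For DHT in KO edgeR called 0 of 8, with 3 (*Syne3*, *Sun2* and *Lmnb1*) at an unadjusted p under 0.05. DESeq2 called 1 and limma-voom 0 there, and edgeR called 4.62% of all genes. With empty tubes 1 of 8 differed between genotypes (*Sun2*, lower in KO), against 4.25% of all genes, and with DHT 2 of 8 did (*Sun1* higher and *Sun2* lower in KO), against 11.6%. For the interaction in the DHT experiment edgeR called 0 of 8, with 0 at an unadjusted p under 0.05 and 0 by DESeq2 and limma-voom, and 3.24% of all genes were called. With 8 genes, counts of 0 to 2 are near these shares, so the number of changes is no result about the group of genes. What follows is about which genes they were.

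**Figure D2:**
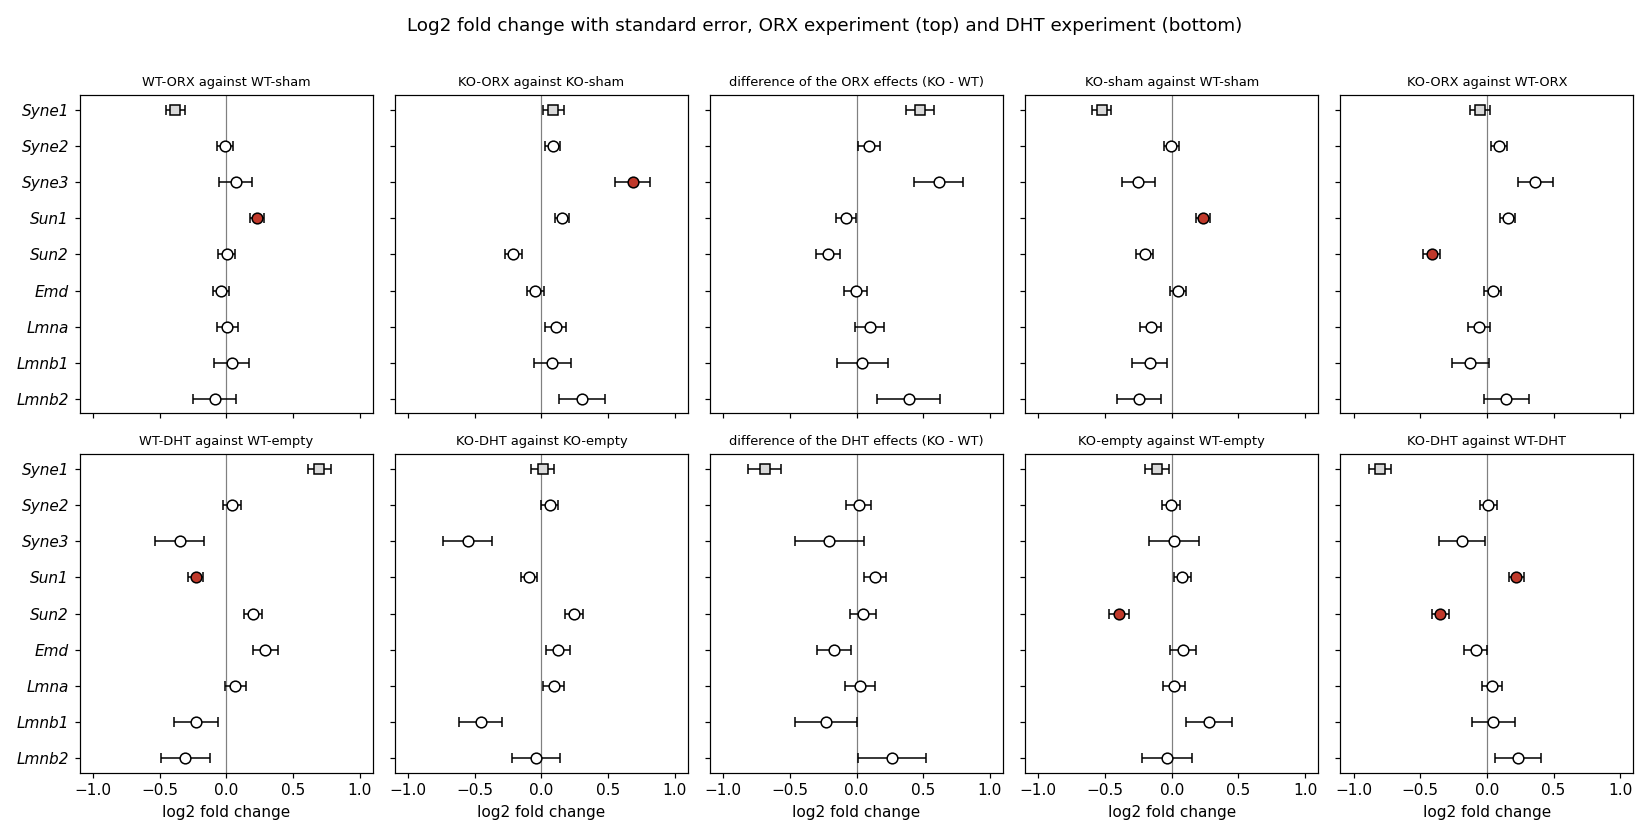
Log2 fold change (horizontal axis) with its standard error for the 9 genes in the 5 comparisons of the ORX experiment (top) and of the DHT experiment (bottom), with red circles for calls, white circles for the rest and grey squares for *Syne1*, which was not tested. The calls are those of *Sun1*, *Sun2* and *Syne3*, with log2 fold changes from -0.41 (*Sun2*, KO-ORX against WT-ORX) to 0.69 (*Syne3*, KO-ORX against KO-sham).

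*Syne2* encodes nesprin-2, the other giant nesprin with actin-binding domains. Its libraries ran from 6.15 to 6.50 log2 CPM in the ORX experiment and from 5.96 to 6.32 in the DHT experiment. All 4 groups overlapped in each, with neighbouring means less than 1 SD apart. Its log2 fold changes over the 10 comparisons ran from -0.01 (ORX in WT, q 0.949, lower in 4 of 6 mice) to 0.09 (interaction in the ORX experiment, q 0.754). No change of *Syne2* was detected where *Syne1*, its closest relative, changed most.

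*Syne3* encodes nesprin-3, which lacks actin-binding domains and binds plectin, a linker to intermediate filaments. Its lowest, median and highest log2 CPM were 2.93, 3.37 and 3.58 in WT-sham, 3.21, 3.39 and 3.63 in WT-ORX and 2.80, 3.09 and 3.39 in KO-sham. The 5 KO-ORX libraries stood at 3.33, 3.76, 3.81, 3.93 and 4.05. Of these 5, 4 were above every library of the other 3 groups and the lowest lay within them. ORX in KO raised *Syne3* by a log2 fold change of 0.69 ± 0.13 (q 0.00106, higher in 5 of 5 mice than the KO-sham mean). ORX in WT gave 0.07 ± 0.12 (q 0.808, higher in 3 of 6). These effects are not shown to differ, since the interaction was 0.61 ± 0.18 (q 0.202). The genotypes differed by -0.25 ± 0.13 in sham mice (q 0.238, lower in 5 of 6) and by 0.36 ± 0.13 in ORX mice (q 0.0914, higher in 4 of 5).

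*Syne3* in the DHT experiment stood at 2.55, 3.17, 3.39, 3.44 and 3.64 log2 CPM in WT-empty and at 2.95, 3.19, 3.22, 3.43 and 3.62 in KO-empty. The lowest, median and highest were 2.32, 2.95 and 3.39 in WT-DHT and 2.41, 2.69 and 3.06 in KO-DHT. All groups overlapped, and spread within groups was wide, with SDs from 0.24 to 0.42. DHT in KO gave a log2 fold change of -0.55 ± 0.18 (q 0.0503, lower in 6 of 6 mice) and DHT in WT -0.35 ± 0.18 (q 0.200, lower in 5 of 6), neither past the threshold, and their difference was -0.20 ± 0.26 (q 0.771). In KO mice *Syne3* was thus higher without testes and, short of the threshold, lower with DHT.

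*Sun1* encodes a SUN protein of the inner nuclear membrane that binds the KASH domains of nesprins. Its lowest, median and highest log2 CPM were 5.68, 5.78 and 5.89 in WT-sham, 5.91, 6.04 and 6.11 in WT-ORX and 5.90, 5.97 and 6.22 in KO-sham. The 5 KO-ORX libraries stood at 6.13, 6.15, 6.17, 6.18 and 6.24. WT-sham was lowest, with every library below all those of the other 3 groups, KO-sham and WT-ORX had means less than 1 SD apart, and KO-ORX was highest, above all WT-ORX libraries and overlapping KO-sham. ORX in WT raised *Sun1* by a log2 fold change of 0.23 ± 0.05 (q 0.00377, higher in 6 of 6 mice), and KO-sham was above WT-sham by 0.23 ± 0.05 (q 0.00366, higher in 6 of 6). Both comparisons use the WT-sham libraries. ORX in KO gave 0.15 ± 0.05 (q 0.0695, higher in 5 of 5) and genotype in ORX mice 0.16 ± 0.05 (q 0.0837, higher in 5 of 5). The interaction was -0.08 ± 0.08 (q 0.786), so the ORX effect is not shown to differ between genotypes.

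These calls of *Sun1* lay close to the threshold and were lost when certain libraries were left out. For ORX in WT, q was 0.0112 without WT-sham mouse 2, 0.0131 without WT-sham mouse 5, 0.0120 without WT-ORX mouse 4 and 0.0128 without WT-ORX mouse 6, where leaving out each library in turn gave q from 0.00124 to 0.0131 and log2 fold changes from 0.21 to 0.25. For genotype in sham mice, q was 0.0104 without KO-sham mouse 1, 0.0114 without KO-sham mouse 2, 0.0101 without WT-sham mouse 2 and 0.0134 without WT-sham mouse 5, in a range from 0.00205 to 0.0134, with log2 fold changes from 0.19 to 0.26. This call was also lost when only the WT-sham and KO-sham libraries were fitted (log2 fold change 0.24, q 0.0143). The direction held in each case. With libraries scaled by their totals, ORX in KO also passed, with a log2 fold change of 0.26 (q 0.00185), but under that scaling the median of all genes moved as well, as given for *Syne1*. KO-sham libraries were also the smaller ones, and the part of depth in the difference between sham groups was not tested.

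*Sun1* in the DHT experiment stood at 5.69, 5.78, 5.82, 5.83 and 5.89 log2 CPM in WT-empty and at 5.79, 5.79, 5.82, 5.91 and 6.09 in KO-empty. The lowest, median and highest were 5.49, 5.58 and 5.67 in WT-DHT and 5.71, 5.77 and 5.90 in KO-DHT. WT-DHT was lowest, with every library below all others, and KO-empty, WT-empty and KO-DHT overlapped with neighbouring means less than 1 SD apart. DHT in WT lowered *Sun1*, with a log2 fold change of -0.23 ± 0.06 (q 0.00678, lower in 6 of 6 mice), and KO-DHT was above WT-DHT by 0.22 ± 0.06 (q 0.00717, higher in 6 of 6), comparisons that share the WT-DHT libraries. DHT in KO gave -0.09 ± 0.06 (q 0.358, lower in 5 of 6) and genotype with empty tubes 0.08 ± 0.06 (q 0.480, higher in 3 of 5). The interaction was 0.14 ± 0.08 (q 0.469). *Sun1* was thus lowest in the groups where *Syne1* was highest, WT-sham and WT-DHT, by steps of smaller size. The likeness was partial: in the ORX experiment KO-ORX stood highest for *Sun1*, while the groups of *Syne1* other than WT-sham overlapped. Neither interaction of *Sun1* passed.

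Here too the calls of *Sun1* turned on single libraries. For DHT in WT, q was 0.0142, 0.0115, 0.0159 and 0.0204 without WT-empty mouse 2, 3, 4 and 5 and 0.0165, 0.0102, 0.0170 and 0.0122 without WT-DHT mouse 2, 3, 4 and 5, in a range from 0.00219 to 0.0204 over all libraries left out in turn, with log2 fold changes from -0.26 to -0.21. The call was also lost when only the WT-empty and WT-DHT libraries were fitted (log2 fold change -0.24, q 0.0122). For genotype with DHT, q was 0.0183, 0.0112, 0.0191 and 0.0133 without WT-DHT mouse 2, 3, 4 and 5 and 0.0151, 0.0101, 0.0133, 0.0226 and 0.01005 without KO-DHT mouse 2, 3, 4, 5 and 6, in a range from 0.00243 to 0.0226, with log2 fold changes from 0.20 to 0.24. An annotated antisense RNA shares exon bases with *Sun1*, and another with *Sun2*. The libraries were stranded by the study's methods, but whether the counting used the strand is not stated, so it is not known if the counts of these genes include reads of those RNAs.

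*Sun2* encodes the other SUN protein of the inner nuclear membrane in somatic cells. Its lowest, median and highest log2 CPM were 6.97, 7.12 and 7.17 in WT-sham, 6.87, 7.08 and 7.25 in WT-ORX and 6.67, 6.88 and 7.08 in KO-sham. The 5 KO-ORX libraries stood at 6.58, 6.68, 6.68, 6.71 and 6.73. The WT groups were level with each other, KO-sham lay more than 1 SD lower but overlapped them, and KO-ORX was lowest, below every WT library and overlapping KO-sham. KO-ORX was below WT-ORX by a log2 fold change of -0.41 ± 0.07 (q 0.000147, lower in 5 of 5 mice). The other comparisons did not pass: genotype in sham mice gave -0.20 ± 0.06 (q 0.0390, lower in 6 of 6) and ORX in KO -0.21 ± 0.07 (q 0.0402, lower in 5 of 5). ORX in WT gave 0.00 ± 0.06 (q 0.991, higher in 3 of 6), and the interaction was -0.21 ± 0.09 (q 0.442), so the genotype difference is not shown to depend on ORX.

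*Sun2* in the DHT experiment stood at 7.19, 7.22, 7.23, 7.26 and 7.28 log2 CPM in WT-empty and at 6.66, 6.80, 6.80, 6.85 and 7.06 in KO-empty. The lowest, median and highest were 7.20, 7.45 and 7.61 in WT-DHT and 6.99, 7.09 and 7.17 in KO-DHT. Every KO library was below every WT library, whatever the tube held. The log2 fold change, KO minus WT, was -0.39 ± 0.07 with empty tubes (q 0.000926, lower in 5 of 5 mice) and -0.35 ± 0.07 with DHT (q 0.000396, lower in 6 of 6). DHT itself gave 0.20 ± 0.07 in WT (q 0.0468, higher in 5 of 6) and 0.25 ± 0.07 in KO (q 0.0230, higher in 6 of 6), neither past the threshold, and their difference was 0.05 ± 0.10 (q 0.878). DESeq2 did call DHT in KO (log2 fold change 0.25, q 0.00960), as did edgeR without KO-empty mouse 5, the highest KO-empty library (0.31, q 0.00394). In 3 of the 4 comparisons between genotypes *Sun2* was thus lower in KO past the threshold, and in sham mice it was lower short of it.

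*Emd* encodes emerin, an inner membrane protein that binds lamins. Its libraries ran from 4.03 to 4.48 log2 CPM in the ORX experiment and from 3.62 to 4.27 in the DHT experiment, with overlap between all neighbouring groups and neighbouring means less than 1 SD apart. Its largest log2 fold change was 0.29 ± 0.09 for DHT in WT (q 0.0286, higher in 6 of 6 mice), which did not pass. Without WT-empty mouse 1, the highest of its group, it was 0.36 (q 0.00738). In the other 9 comparisons the log2 fold change lay between -0.17 and 0.12. Part of the exons of *Emd* is shared with an annotated pseudogene on the same strand, so that reads there may have been left uncounted or placed on either.

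*Lmna* encodes the A-type lamins, which bind SUN proteins and emerin at the inner membrane. Its libraries ran from 5.59 to 6.12 log2 CPM in the ORX experiment and from 6.03 to 6.54 in the DHT experiment. All groups of an experiment overlapped, and no neighbouring means differed by 1 SD. Its largest log2 fold change was -0.16 ± 0.08 for genotype in sham mice (q 0.210, lower in 4 of 6).

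*Lmnb1* and *Lmnb2* encode the B-type lamins, which stay anchored in the inner membrane. *Lmnb1* ran from 1.67 to 2.61 log2 CPM in the ORX experiment and from 1.49 to 2.91 in the DHT experiment, on counts from 97 to 349. Its largest log2 fold change was -0.46 ± 0.16 for DHT in KO (q 0.0775, lower in 6 of 6 mice). *Lmnb2* ran from 1.36 to 2.63 and from 1.79 to 3.04 log2 CPM, on counts from 88 to 408. Its largest log2 fold change was 0.39 ± 0.24, for the interaction in the ORX experiment (q 0.626). Neighbouring groups overlapped for both genes. The spread within groups was wide, with pooled SDs in the ORX experiment of 0.23 for *Lmnb1* and 0.31 for *Lmnb2* against 0.08 for *Sun1*. In the DHT experiment these SDs were 0.29 and 0.34 against 0.09. Steps of the size seen in *Sun1* may thus have been missed in *Lmnb1* and *Lmnb2*, which was not tested.

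The counts of called genes in the lists below are to be read against the shares of all genes called by edgeR, which were 5.45% for ORX in WT, 5.57% for ORX in KO, 5.30% and 3.80% for genotype in sham and ORX mice and 0.0228% for the interaction. In the DHT experiment they were 11.3% for DHT in WT, 4.62% for DHT in KO, 4.25% and 11.6% for genotype with empty tubes and with DHT, and 3.24% for the interaction.

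Other proteins of the nuclear envelope were counted from a list of 25 genes, of which 22 were in the tables and *Syne4*, *Sun3* and *Sun5* were not. In the ORX experiment edgeR called 2 with ORX in WT (*Tmem43*, -0.35 log2, and *Tor1b*, 0.18), 2 between genotypes in sham mice (*Tor1b*, 0.21, and *Zmpste24*, 0.25) and 1 in ORX mice (*Zmpste24*, 0.22). Of these, *Zmpste24* in ORX mice was lost with limma-voom (q 0.0115), and *Tmem43* (q 0.0165) and *Tor1b* in sham mice (q 0.0278) with scaling by library totals. *Tmem43* encodes LUMA, a partner of emerin, *Tor1b* an ATPase of the space between the nuclear membranes, and *Zmpste24* the protease that matures lamin A. ORX in KO and the interaction each gave 0 by edgeR, DESeq2 and limma-voom, with 2 and 2 at an unadjusted p under 0.05. In the DHT experiment 5 of 22 were called with DHT in WT (2 higher, 3 lower; 11.3% of all genes), 1 with DHT in KO (*Tmpo*, 0.45), 1 between genotypes with empty tubes (*Fhl1*, 0.68) and 5 of 22 with DHT (4 higher, 1 lower; 11.6% of all genes).

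The 3 calls of this list for the interaction in the DHT experiment were those of *Spag4*, *Mlip* and *Tmem43*. *Spag4* encodes a further SUN protein; its log2 fold change was 2.38 ± 0.38 for DHT in WT (q 5.57e-05), -2.36 ± 0.36 between genotypes with DHT (q 3.01e-05) and -2.78 ± 0.54 for the interaction (q 0.00303). *Mlip*, which encodes a protein that binds lamin A and C, gave -0.49 ± 0.06 for DHT in WT (q 3.63e-06) and 0.34 ± 0.09 for the interaction (q 0.0376). *Tmem43* gave 0.55 ± 0.07 for DHT in WT (q 4.00e-06) and -0.37 ± 0.10 for the interaction (q 0.0461), which scaling by library totals lost (q 0.156). With DHT in WT, *Spag4* and *Tmem43* moved as *Syne1* did and *Mlip* moved the other way, as *Sun1* did.

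A list of 19 genes for partners of nesprins held *Musk* beside genes of the cytoskeleton and centrosome, and all were measured. In the ORX experiment edgeR called 1 with ORX in WT, 1 with ORX in KO, 1 between genotypes in sham mice and 1 in ORX mice. Each of those was *Musk*, which encodes the receptor kinase of the neuromuscular junction, where nesprin-1 is enriched on the nuclei. Its log2 fold change was -1.09 ± 0.14 for ORX in WT (q 2.74e-06), -0.63 ± 0.15 for ORX in KO (q 0.00670), -1.33 ± 0.14 for genotype in sham mice (q 3.59e-07) and -0.87 ± 0.15 in ORX mice (q 0.000354). For the interaction in the ORX experiment edgeR called 0 of the 19, with 1 at an unadjusted p under 0.05 and 0 by DESeq2 and limma-voom. In the DHT experiment *Musk* gave 2.04 ± 0.13 for DHT in WT, 1.07 ± 0.13 for DHT in KO, -0.72 ± 0.13 for genotype with empty tubes and -1.69 ± 0.12 with DHT, and the interaction was -0.97 ± 0.17 (q 0.00130). *Musk* shared the direction of *Syne1* in WT mice but changed in KO mice as well.

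Other calls among the 19 included *Pcm1* for DHT in WT (-0.37 log2) and *Fhod1* for genotype with empty tubes (0.76). For genotype with DHT edgeR called 5 of 19 (2 higher, 3 lower), against 11.6% of all genes, and the 4 with the smallest p were *Musk*, *Dst* (-0.45), *Macf1* (-0.33) and *Klc1* (0.23). With libraries scaled by their totals the calls of *Macf1* (q 0.0279) and of *Musk* for ORX in KO (q 0.0224) were lost. *Dst* and *Macf1* encode giant linkers of actin and microtubules. Of 31 nuclear pore genes 30 were measured, and in the DHT experiment edgeR called *Nup210* for DHT in WT (0.52), *Ndc1* for genotype with empty tubes (0.36), and *Nup210* (-0.50), *Ndc1* (0.40) and *Aaas* (0.35) for genotype with DHT. *Nup210* also passed for the interaction (-0.51 ± 0.10, q 0.00225). For DHT in KO and for the comparisons ORX in WT, ORX in KO, genotype in sham mice and interaction of the ORX experiment, edgeR, DESeq2 and limma-voom each called 0 pore genes, with 2, 9, 6, 4 and 2 at an unadjusted p under 0.05. For genotype in ORX mice edgeR and limma-voom called 0 and DESeq2 2, with 5 at an unadjusted p under 0.05.

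The libraries are of whole muscle, so fewer cells of a type and less RNA per cell cannot be told apart. Marker lists of 12 cell types, with 51 genes measured and none at 0 in every library, were read in the same fit. For nuclei of the neuromuscular junction (7 of 7 measured), the summed level was lowest, median and highest 113, 116 and 119 CPM in WT-sham, 90.6, 100.3 and 108 in WT-ORX, 84.1, 89.5 and 105 in KO-sham and 90.5, 93.4 and 97.9 in KO-ORX. In the DHT experiment it was 62.5, 76.3 and 97.3 CPM in WT-empty, 120, 135 and 141 in WT-DHT, 74.5, 82.7 and 90.1 in KO-empty and 102, 106 and 125 in KO-DHT. WT-sham and WT-DHT had the highest medians of this sum, and they held this place through *Musk* alone. The most abundant gene of a list, here and below, is the one with the largest share of its summed CPM, not scaled by length. Here that was *Musk*, with 28.3% and 33.1% of the sum on average. Without it the lowest, median and highest sums were 50.4, 64.5 and 65.8 CPM in WT-sham, 69.4, 74.4 and 78.4 in WT-ORX, 61.2, 68.9 and 81.7 in KO-sham and 73.4, 80.9 and 86.2 in KO-ORX. They were 49.2, 55.5 and 71.5 CPM in WT-empty, 43.9, 49.0 and 51.7 in WT-DHT, 65.0, 68.7 and 77.7 in KO-empty and 78.5, 80.7 and 96.8 in KO-DHT. By median, WT-sham and WT-DHT were then the lowest groups of their experiments, opposite to *Syne1*. Over the 7 genes the median log2 fold change was -0.25 for DHT in WT and 0.47 for genotype with DHT, against -0.01 and 0.01 for all genes. It was 0.25 for DHT in KO and 0.20 for genotype with empty tubes, where all genes gave -0.01 and 0.01. In the ORX experiment this median was 0.21 for ORX in WT, 0.05 for genotype in sham mice and -0.10 in ORX mice. For all genes it was 0.01, -0.01 and 0.01 there.

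For the same 7 genes, to be read against the shares of all genes given above, edgeR called 3 with ORX in WT (2 higher, 1 lower), 2 with ORX in KO (1 higher, 1 lower), and 2 between genotypes in sham mice and 2 in ORX mice (1 higher and 1 lower in each). It called 3 with DHT in WT (1 higher, 2 lower), 2 with DHT in KO (both higher), 2 between genotypes with empty tubes (1 higher, 1 lower), 4 with DHT (3 higher, 1 lower) and 3 for the interaction of the DHT experiment (2 higher, 1 lower). Of the genes that moved against *Musk*, *Chrnb1*, a subunit of the acetylcholine receptor, gave -0.39 for DHT in WT and 1.04 for genotype with DHT, and *Etv5* gave -0.50 for DHT in WT and 0.32 for ORX in WT. For genotype with DHT, *Ache* (0.99) and *Chrne* (0.69) were higher as well. For DHT in KO, in contrast, *Ache* was higher together with *Musk* (0.86, q 8.38e-06). For the interaction in the ORX experiment edgeR, DESeq2 and limma-voom called 0, with 1 at an unadjusted p under 0.05. The part of junction nuclei in the values of *Syne1* was not tested.

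Other lists moved in some of the comparisons in which *Sun1*, *Sun2* or *Syne1* moved, and their part was not tested. Satellite cell markers (4 of 4 measured, *Chodl* most abundant) were higher in KO-DHT than WT-DHT for 3 of 4 (*Pax7*, 1.24 log2, *Calcr*, 1.04, and *Myf5*, 0.89), with sums of 16.5, 19.6 and 23.0 against 10.0, 11.9 and 16.1 CPM as lowest, median and highest, and *Myf5* was higher in KO-sham than WT-sham (0.75). The median of these 4 genes was 0.62 log2 for genotype in sham mice and -0.56 for DHT in WT, with 3 of 4 at an unadjusted p under 0.05 in each. For DHT in WT edgeR and limma-voom called 0 of them and DESeq2 1. The median was 0.40 for ORX in WT, 0.40 for genotype in ORX mice and 0.39 with empty tubes. At an unadjusted p under 0.05 were 2, 2 and 1 of 4, with 0 called by edgeR and limma-voom and 1, 0 and 1 by DESeq2. Endothelial markers (5 of 5, *Pecam1* most abundant) were higher with DHT, 2 of 5 in WT (*Tie1*, 0.45, and *Pecam1*, 0.33) and 1 of 5 in KO (*Tie1*, 0.40), with sums of 152, 172 and 201 CPM in WT-empty and 199, 227 and 254 in WT-DHT. Of smooth muscle and pericyte markers (4 of 4), *Rgs5*, the most abundant, was higher with DHT in WT (0.45) and KO (0.34). Fibro-adipogenic markers (5 of 5, *Dcn* most abundant) moved both ways: *Lum* rose with ORX in WT (0.59) and KO (0.57) and fell with DHT in KO (-0.98), *Dcn* rose with DHT in WT (0.54) and KO (0.51), and *Pdgfra* fell with ORX in WT (-0.23) and DHT in WT (-0.44).

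Of macrophage markers (4 of 4, *Mrc1* most abundant), *Csf1r* was lower with ORX in WT (-0.31) and in KO-sham (-0.29). Of lymphocyte markers only *Cd3e* was in the tables, and it was higher in KO for sham (1.28) and ORX mice (1.33), with medians of 2.95 CPM in KO-sham and 1.32 CPM in WT-sham. Of tendon markers (3 of 3, *Fmod* most abundant), *Fmod* was higher with ORX in KO (1.23), the comparison in which *Syne3* was called, with sums of 167, 325 and 449 CPM in KO-ORX and 72.1, 126 and 218 in KO-sham, and *Scx* was lower in KO-DHT than WT-DHT (-0.88). For genotype in sham mice the median of the 3 tendon genes was -0.77 log2, with 3 of 3 at an unadjusted p under 0.05 and 0 called by edgeR, DESeq2 and limma-voom, and the WT-sham sums were 152, 229 and 374 CPM. Adipocyte, Schwann and erythroid markers (4 of 4 measured in each) gave 0 calls by edgeR, DESeq2 and limma-voom in the 10 comparisons. At an unadjusted p under 0.05 were at most 2 adipocyte genes, 1 Schwann gene and 4 erythroid genes in any of these, the last for genotype with empty tubes. In that comparison, where *Sun2* was called, the erythroid median was 0.92 log2. The lowest, median and highest erythroid sums were 92.4, 159 and 679 CPM in KO-empty and 58.4, 133 and 262 in WT-empty. Erythroid medians were 0.74 for DHT in WT and -1.28 for the interaction with DHT. Adipocyte medians were -0.53 for DHT in WT and 0.54 for genotype with DHT, where *Sun1* was called.

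Of the muscle fibre markers (6 of 6 measured), *Acta1* was lower in KO than WT in sham (-0.37), ORX (-0.50) and DHT mice (-0.51). *Tnnt3* was lower in KO than WT in ORX mice (-0.41) and with empty tubes (-0.37), and *Ckm* in ORX mice (-0.37). ORX lowered *Tnnt3* in KO (-0.20, but -0.09 and not called, q 0.166, with scaling by library totals), and *Mylpf* was higher with ORX in WT (0.44). Between genotypes edgeR called 1 of 6 in sham mice, 3 in ORX mice, 1 with empty tubes and 1 with DHT. Of all genes 5.30%, 3.80%, 4.25% and 11.6% were called there. In that order the medians of the 6 genes were -0.08, -0.30, -0.26 and -0.12 log2. For all genes they were -0.01, 0.01, 0.01 and 0.01. *Sun2* was called in each of these comparisons but that in sham mice. Of 4 myosin genes that mark fibre types, *Myh4* held 91.1% of the sum in the ORX experiment and 90.8% in the DHT experiment, and edgeR called *Myh1* lower with ORX in WT (-0.61) and KO (-0.61), the latter lost with scaling by library totals (q 0.0114). In the other 8 comparisons edgeR called 0 of the 4, with 0 to 2 at an unadjusted p under 0.05. DESeq2 called 0 there too, limma-voom 1 for DHT in KO, and edgeR with scaling by library totals 1 for DHT in WT. Of 10 proliferation genes, 5 were in the ORX table and 7 in the DHT table. *Tpx2* was lower in KO-sham than WT-sham (-1.04) and in KO-DHT than WT-DHT (-0.81), and *Mki67* was lower with DHT in KO (-2.51), where the sum ran to 76.5 CPM in a KO-empty library against a group median of 16.3. The call of *Mki67* was lost with limma-voom (q 0.0726), and that of *Tpx2* for genotype with DHT with limma-voom (q 0.0119) and with scaling by library totals (q 0.0204). The median log2 fold change of the list was 0.10 for genotype in sham mice and 0.05 with DHT, unlike the direction of *Tpx2*. It was 1.66 for genotype with empty tubes, a comparison in which *Sun2* was called, with 6 of 7 genes at an unadjusted p under 0.05, 0 called by edgeR and limma-voom and 2 by DESeq2. For DHT in KO it was -1.64, with 6 of 7 at an unadjusted p under 0.05 and 3 called by DESeq2. For the interaction of the DHT experiment it was -1.41, with 4 of 7 at an unadjusted p under 0.05 and 0 called by the 3 tools. ORX gave medians of 0.68 in WT and 0.89 in KO, with 3 and 2 of 5 at an unadjusted p under 0.05, 0 called by edgeR and limma-voom and 1 and 2 by DESeq2. Among the cell type markers named above, scaling by library totals lost the calls of *Chrnb1* and *Myf5* in sham mice, *Chrnb1* for the interaction with DHT, *Pecam1* and *Dcn* for DHT in WT, *Tie1* and *Dcn* for DHT in KO, *Pdgfra* for ORX in WT, both of *Csf1r* and that of *Scx*. limma-voom lost those of *Chrnb1* in sham mice, *Etv5* for DHT in WT and *Scx*. The part of fibre composition and dividing cells in the values of the 9 genes was not tested.

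The promoters of the 9 genes, 250 bases before to 50 after each start in RefSeq (GRCm38.p6), were searched on both strands for the androgen response element, TGTTCT preceded by its reverse complement with 3 bases of any kind between, and for TGTTCT alone. Entries were found for 8 of 9 genes, with 13 promoters. TGTTCT alone was in 1 of 1 promoter of *Syne2* and 1 of 2 of *Lmna* and in 0 of 3 of *Syne1*, against 19.0% of all 32851 promoters, and the whole element was in 0 of 13, against 0.00913% of all. A match or its absence describes these letters in this window and no more.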

How the data were processed

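The deposited tables hold counts of reads per gene, made by the authors from RNA of 45 muscle libraries with STAR 2.7.1b, Picard 2.20.2, SAMtools 1.9 and featureCounts (Subread 2.0.0); the labels give the build GRCm39, and genes with low counts had been removed by the authors. Libraries were stranded; the strand setting of the counting and the annotation release are not stated. Genes were matched by Ensembl identifier to GENCODE M21 (GRCm38), which also gave exon lengths, and no coordinates are given.

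Each experiment was fitted as a whole with edgeR 4.0.16 in R 4.3.3, with a mean for each of its 4 groups, TMM scaling, the quasi-likelihood F test (two-sided) and Benjamini-Hochberg adjustment over all genes of the table. The 10 comparisons were ORX or DHT in each genotype, genotype under each treatment, and the interaction. Log2 CPM used a prior count of 2. The standard error of a log2 fold change was its size divided by the square root of F. For *Syne1* it is given as a description of spread and stands for no test. The code was tested on simulated data. Alternatives were DESeq2 1.42.0, limma-voom (limma 3.58.1), library-size scaling, only genes with at least 10 counts in every library, only the groups compared, each library left out in turn, and a replicate block in the ORX experiment. Tables and figures used pandas 2.3.3 and matplotlib 3.10.9 in Python 3.11.15.

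The 9 genes and the lists (nuclear envelope, nesprin partners, nuclear pore, fibre type, proliferation and 12 cell types) were chosen with earlier results of these data known. Named were all 9 genes, *Actn3*, at most 4 called genes of a list in each comparison by smallest p, the 5 genes most like *Syne1*, and 3 genes on either side of it. *Actn3*, the knocked-out gene, was not tested. Protein sequences were not at hand and were left out.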

Additional observations from a re-analysis of the deposited data

Results flagged for a closer look

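In 2 of 72 groups of libraries (9 genes in 8 groups), a single library lay far from the others of its group for its gene, by a gap to the nearest library, divided by the whole range of the group, above Dixon's critical value for a group of its size, 5 or 6 libraries. Chance gives this in about 1 in 20 groups. *Syne1* in WT-sham had its highest library, mouse 5, at 8.01 log2 CPM, with the other libraries from 7.70 to 7.80, a value of 0.678. *Lmnb2* in WT-DHT had its lowest library, mouse 2, at 1.85 log2 CPM, with the others no higher than 2.38 and a median of 2.29 over the group, a value of 0.664. The other 5 WT-sham libraries were also above every library of the other 3 groups of that experiment for *Syne1*. What set these libraries apart was not tested.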

How the results depend on the processing

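Of the 8 called fold changes, 42 of 44 values under the alternatives kept their direction and their side of the threshold, 2 fell short of it and 0 reversed. Of 180 values with 1 library left out, 155 kept both, and 25, all of *Sun1*, fell short. The fold changes of *Syne1*, which carry no test, moved by less than the spread between mice in 53 of 53 and 225 of 225 values.

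The number of genes called with ORX in KO was 2 with library-size scaling (*Sun1* added). With only the groups compared it was 0 for genotype in sham mice and 0 for DHT in WT, where *Sun1* had q 0.0143 and 0.0122, in ranges over the alternatives from 0.000319 to 0.0143 and from 0.00202 to 0.0122; fewer libraries then estimate the spread. For DHT in KO it was 1 with DESeq2 (*Sun2*), and the cause was not tested. With each library left out in turn the count ran from 0 to 1 for ORX in WT, from 0 to 1 for genotype in sham mice, from 0 to 2 for DHT in WT, from 0 to 1 for DHT in KO and from 1 to 2 for genotype with DHT; for the other 5 comparisons it did not change.

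With the replicate block of the ORX experiment the counts were 1 for ORX in WT, 1 for ORX in KO, 1 for genotype in sham mice, 1 in ORX mice and 0 for the interaction, as without it. Libraries of different groups with the same replicate number were no more alike than others, with a median r of 0.007 over 33 pairs against -0.009 over 165 pairs, so mice were treated as unpaired. The DHT columns carry no replicate numbers of the labels, and no block was run there.

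The study has males in the ORX experiment and females in the DHT experiment, and RNA levels do not give protein levels.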
